A study of Mus musculus with 4 samples.

Results

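The genes of the constitutive proteasome and of its assembly were followed through 4 RNA-Seq libraries of HT-22 cells, a mouse hippocampal neuronal line made immortal in culture. The members were chosen by name: mouse gene symbols that start with Psma, Psmb, Psmc, Psmd, Psme, Psmf or Psmg followed by a digit, without the subunits of the immunoproteasome (Psmb8, Psmb9 and Psmb10) and without Psme1 and Psme2. Of 49 such names in the annotation, 45 were protein-coding, and 43 had a value among the 11502 gene symbols of the table. Psma8 and Psmb11, whose products serve the proteasomes of testis and thymus, and 4 pseudogenes had no value here. The 43 genes comprised 14 of the core particle (Psma and Psmb), 20 of the regulatory particle (Psmc and Psmd) and 9 others. Psmc3ip is among the 9 by its name only, since it encodes a partner of meiotic recombination enzymes and no proteasome subunit. Psme2b is a near copy of Psme2, so the sharing of reads between them makes its value uncertain.

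The study asked how PGC-1α, a transcriptional coactivator of mitochondrial genes, alters gene expression in neurons under oxygen and glucose deprivation (OGD). The groups were cells with a negative control lentivirus, whose genotype is labelled wild type (Ctrl), cells with a lentivirus that overexpressed PGC-1α (PGC-1α), and both kinds of cells after OGD (Ctrl+OGD and PGC-1α+OGD). All cells were HT-22 cells that carried a lentivirus and were selected with puromycin. For OGD the cells spent 2 h under nitrogen and carbon dioxide in medium that lacked serum and glucose and then recovered for 24 h in normal medium before the RNA was taken. Each group had 1 library. No difference below has a replicate check, no test was possible, and no p value is given.

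Deposited values were treated as FPKM, fragments scaled to transcript length and to the mapped total of the library, and the transcripts of a gene were summed. Ppargc1a, which encodes PGC-1α, had 0.900 FPKM in control cells and 35.1 FPKM in overexpressing cells without OGD, and 0.103 and 8.41 FPKM after it. Both overexpressing libraries were therefore above their controls, and the level after OGD was lower than before it. Of 8 neuronal markers, 1 had a value, Eno2, at 0.410 to 2.81 FPKM. Rbfox3, Map2, Snap25, Syn1, Tubb3, Slc17a7 and Grin1 had no value here, so the label of hippocampal neurons rests on little in these libraries. Markers of astrocytes, microglia and oligodendrocytes had 1 of 3 with a value each, Slc1a3 at 0.137 to 1.09 FPKM, Cx3cr1 at 0.0239 to 1.22 FPKM and Mbp at 3.26 to 4.76 FPKM. The summed FPKM of all transcripts ranged from 331892 to 353381, and the number of reads behind them is unknown.

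The proteasome degrades proteins that carry ubiquitin chains. Its core particle is a barrel of stacked rings, in which outer alpha rings gate the entry and inner beta rings hold the catalytic sites. The regulatory particle binds ubiquitin chains, removes them, and unfolds the protein with a ring of ATPases that feeds it into the barrel. Subunits are needed in fixed proportions, their genes are often transcribed together, and dedicated chaperones guide assembly. In neurons the proteasome clears damaged proteins after ischemic and oxidative stress.

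The proteasome genes were lowest in untreated control cells and highest in control cells after OGD. Of the 43 genes, 35 had their lowest value in Ctrl, against 28.2% of the 10604 genes whose mean reached 1 FPKM (all genes tested), and 32 had their highest value in Ctrl+OGD, against 26.1%. Most members are abundant, and the shares among abundant genes alone are not given here. All 14 core genes and 15 of 20 regulatory genes were lowest in Ctrl. In such bulk libraries, a change in the mix of cells and a change in RNA per cell cannot be told apart. Together the 43 genes held 0.812% of all FPKM in Ctrl and 0.916% in PGC-1α, and 1.07% and 1.01% in the same cells after OGD. All 43 genes passed the minimum mean of 1 FPKM, and their means ranged from that of Psme2b, at 1.17 to 2.23 FPKM, to that of Psma7, at 189 to 260 FPKM. The plot of levels in the 4 libraries shows the gray points of Ctrl at the bottom of most genes.

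**Figure D1:**
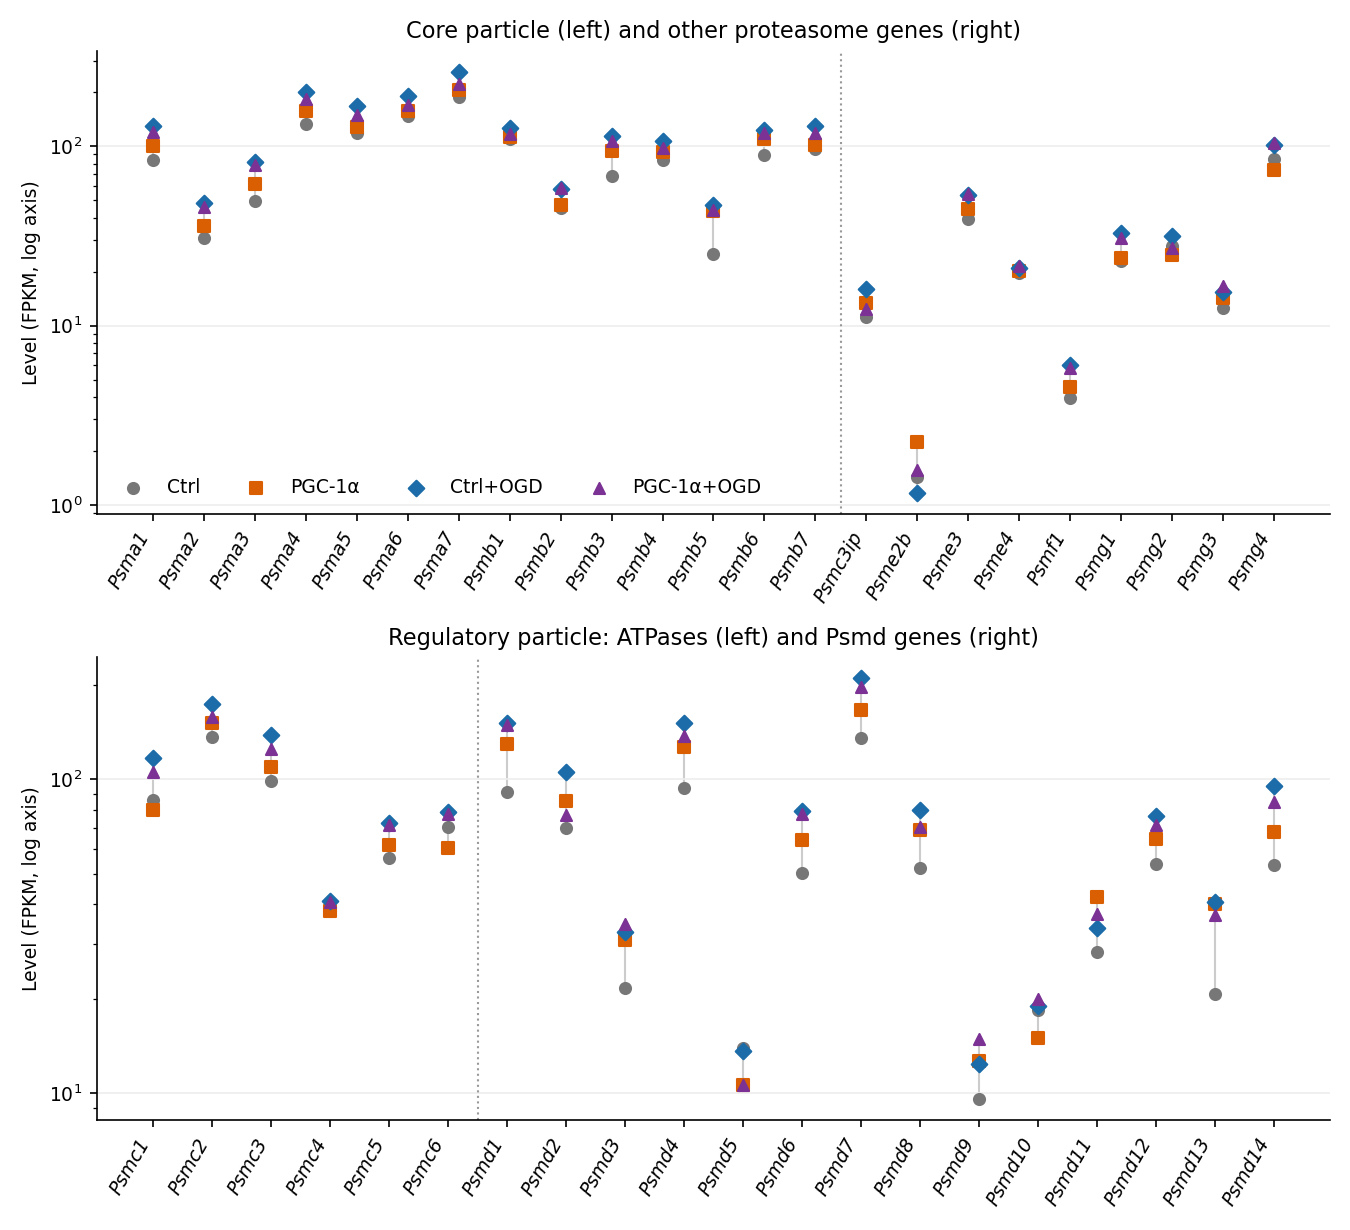
Level of each of the 43 proteasome genes in the 4 libraries (FPKM, log axis), 1 point per library and gene with a gray line from the lowest to the highest; there are no replicates and no error bars. The core particle genes stand left and the 9 others right in the upper panel, the ATPases left and the Psmd genes right in the lower panel, and Ctrl was the lowest point of 35 genes.

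**Figure D2:**
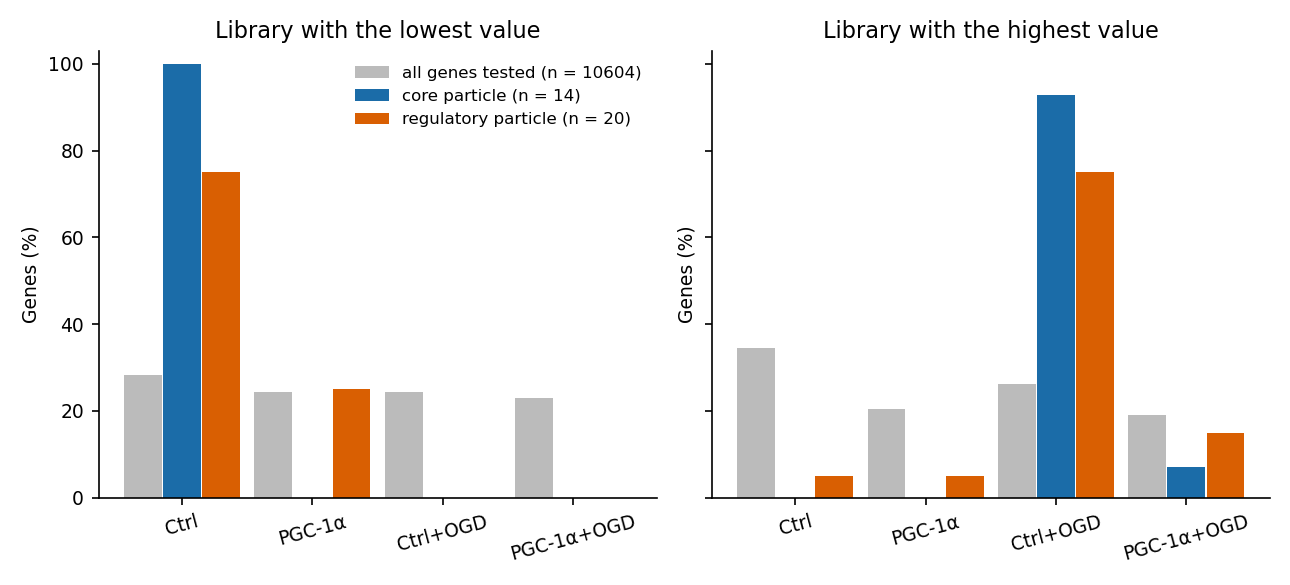
Share of genes (%, bars from 0) whose lowest (left) or highest (right) value fell in each of the 4 libraries, for all genes tested (gray), the core particle (blue) and the regulatory particle (orange). The lowest value fell in Ctrl for 14 of 14 core genes and 15 of 20 regulatory genes, and the highest in Ctrl+OGD for 13 and 15 of them.

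Differences were taken on the scale of log2(FPKM + 1), and a gene was called higher or lower at a fold of at least 1.5 on that scale. In control cells, OGD went with higher levels of nearly the whole group. The median log2 difference of Ctrl+OGD from Ctrl was 0.47 over the 43 genes, against −0.02 over all genes tested and 0.10 over the 3723 genes whose mean reached 20 FPKM. Of the 43 genes, 41 were above 0, against 48% of all genes tested and 61.9% of those that reached 20 FPKM. At least 1.5-fold higher were 12 of the 43 genes, against 6.2% of all genes tested. None was at least 1.5-fold lower, against 7.71%. The exceptions in sign were Psmd5 and Psme2b. The 12 genes called higher were Psma1, Psma2, Psma3, Psmb3, Psmb5, Psmd1, Psmd4, Psmd6, Psmd7, Psmd8, Psmd13 and Psmd14, and all of them are structural subunits. Removal of a linear trend in transcript length over all genes lowered the median to 0.37 and ended the calls of Psma1, Psmb3, Psmd6, Psmd7 and Psmd8, at log2 differences from 0.51 to 0.56.

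PGC-1α overexpression without OGD went with a smaller difference of the same sign. The median of PGC-1α against Ctrl was 0.18, against −0.03 over all genes tested, and 36 of 43 genes were above 0, against 45.8%. Among the genes whose mean reached 20 FPKM, the median was 0.02 and 53.3% were above 0. Psmb5 and Psmd13 were at least 1.5-fold higher, 2 of 43 against 4.91% of all genes tested, which is a share near the background. No member was at least 1.5-fold lower, against 5.63%. This comparison and the one of Ctrl+OGD with Ctrl use the same Ctrl library, so a low value in that library enters both.

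After OGD the median had the other sign and was small. In PGC-1α+OGD against Ctrl+OGD the median was −0.09, against −0.01 over all genes tested, and 10 of 43 genes were above 0, against 47.1%. Over the genes whose mean reached 20 FPKM it was −0.03, with 41.9% above 0. With the length trend removed, the median of the members minus that of all genes tested was −0.04. No member was called in either direction, against 3.08% of all genes tested that were called higher and 3.82% that were called lower. In overexpressing cells, PGC-1α+OGD against PGC-1α gave a median of 0.19, against 0.00, with 38 of 43 genes above 0, against 50.1%. The genes that reached 20 FPKM had a median of 0.05, with 59.1% above 0. No member was called there either, against 3.82% called higher and 5.22% called lower. The plot of differences by role shows all 4 comparisons side by side.

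**Figure D3:**
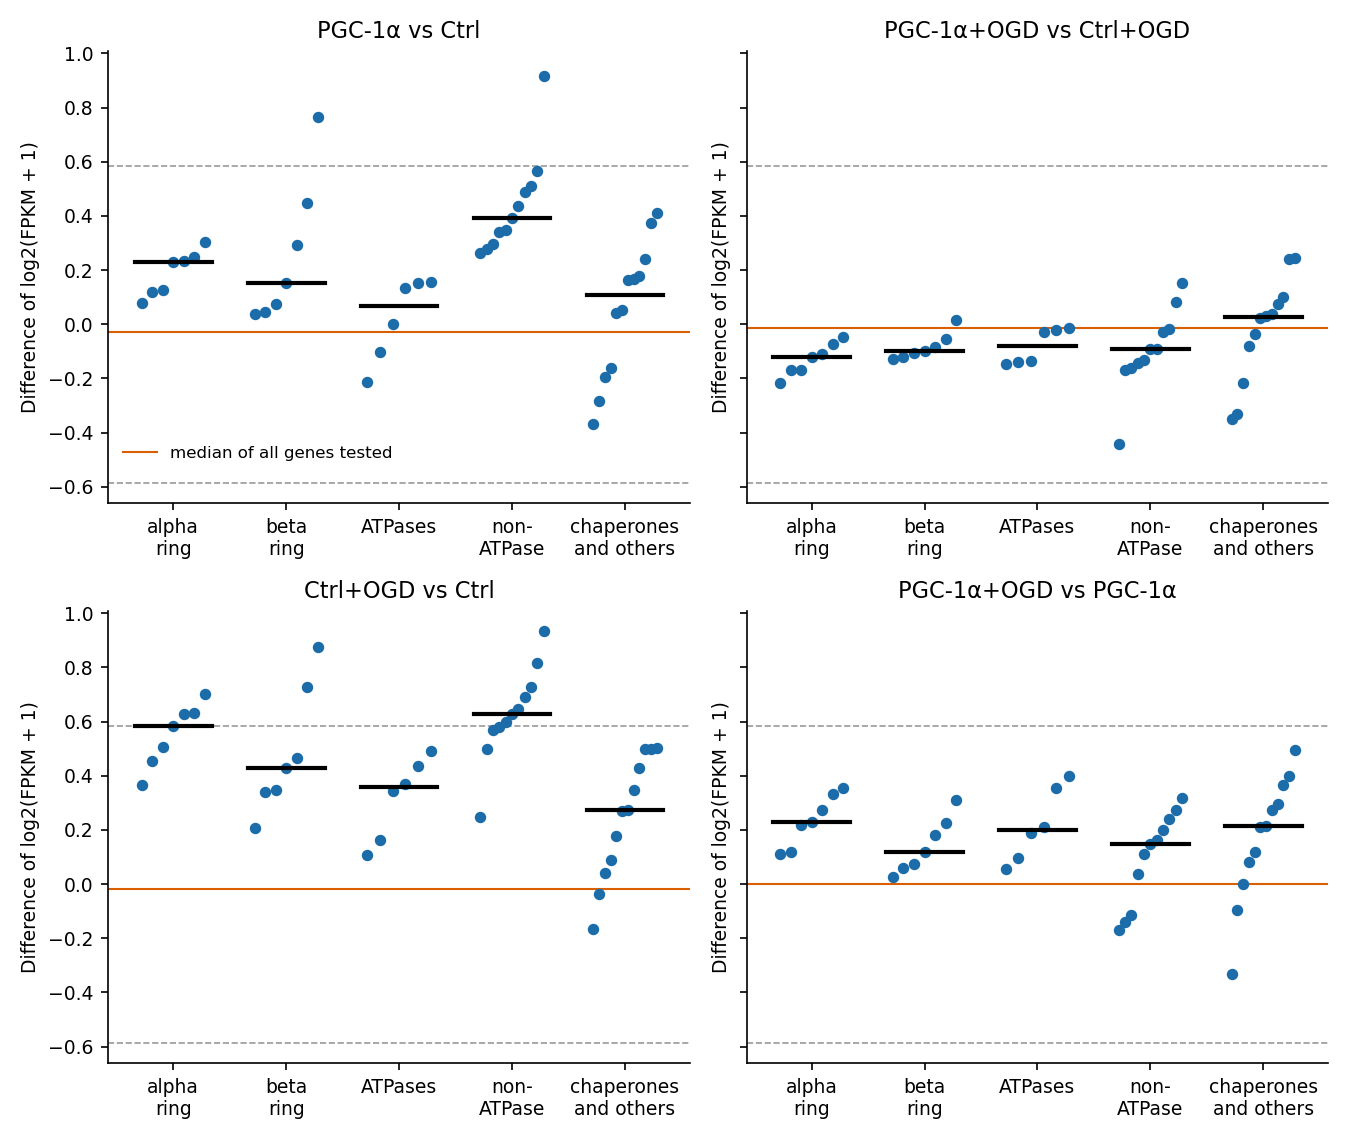
Difference of log2(FPKM + 1) of each proteasome gene (blue points) by role in the 4 comparisons, with the median of each role (black bar), the median of all 10604 genes tested (orange line) and the 1.5-fold limits (dashed lines); chaperones and others hold 12 genes. The points above the upper dashed line number 2 in PGC-1α vs Ctrl, 12 in Ctrl+OGD vs Ctrl and 0 in the other panels.

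The OGD difference was larger without PGC-1α overexpression than with it in 39 of 43 proteasome genes, against 49.3% of all genes tested. That share among abundant genes alone is not given here. The median gap between both OGD differences was 0.29 on the log2 scale, against −0.01 over all genes. For each gene this gap equals its PGC-1α difference without OGD minus that after OGD. It therefore restates the values above and is no separate result. The median gap was 0.32 in the core particle, with 14 of 14 genes above 0, and 0.36 in the regulatory particle, with 17 of 20. The exceptions were the ATPase gene Psmc6 and the chaperone genes Psmd5, Psmd10 and Psmg4, which lie on or above the line of equal differences in the plot of both OGD differences. Across the 43 genes both OGD differences, which share no library, had a Pearson r of 0.16 and a Spearman rho of 0.11. Over all 10604 genes tested, r was 0.28 and rho 0.34. Genes are not independent replicates, and these values are descriptions.

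**Figure D4:**
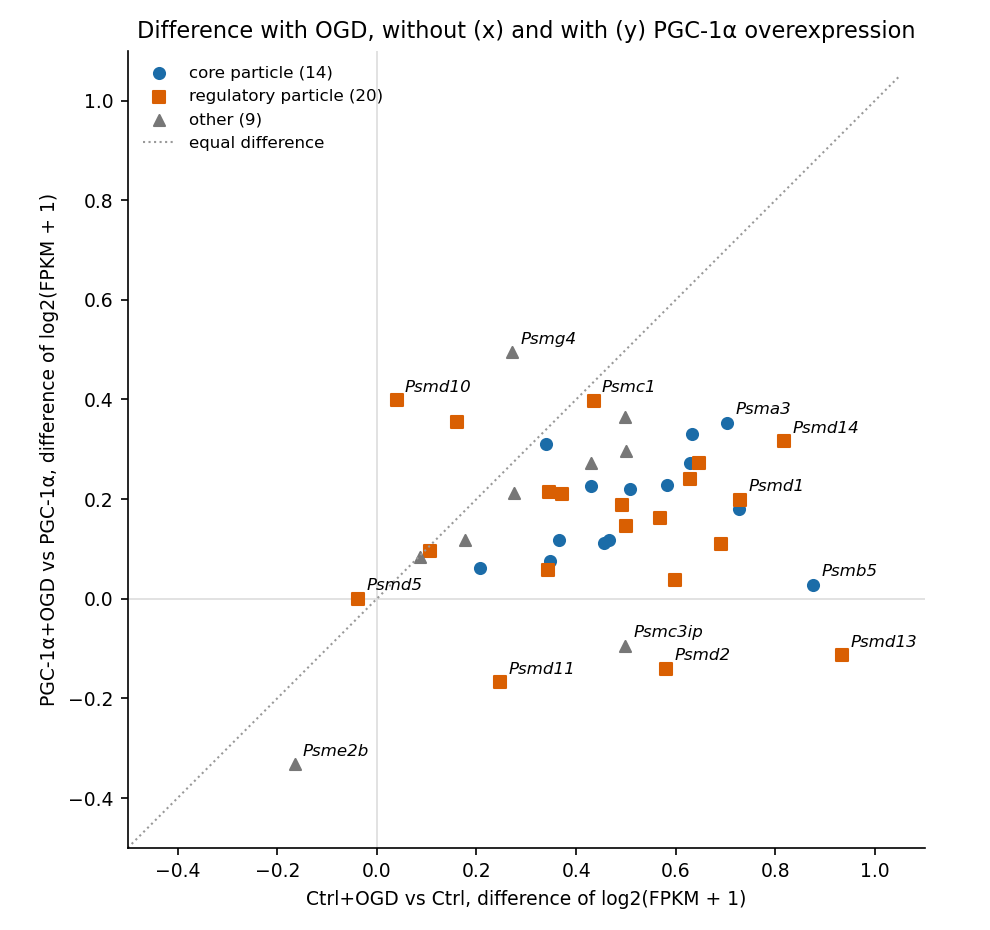
Difference of log2(FPKM + 1) with OGD in control cells (x axis) and in overexpressing cells (y axis) for the 14 core (blue circles), 20 regulatory (orange squares) and 9 other genes (gray triangles), 1 point per gene without error. Of the 43 points, 39 lie to the right of the dotted line of equal differences, with Psmb5 and Psmd13 farthest from it.

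Among the core particle genes, the catalytic subunit Psmb5 differed most. Psmb5, which carries the chymotrypsin-like site that proteasome inhibitors bind, had 25.0 FPKM in Ctrl, 43.2 FPKM with PGC-1α, and 46.8 and 44.1 FPKM in the same cells after OGD. Ctrl stood alone, and the other 3 libraries lay close together. The log2 difference from Ctrl was 0.76 with PGC-1α and 0.88 with OGD, while the OGD difference in overexpressing cells was 0.03. In Ctrl, Psmb5 was the lowest of the 14 core genes, and the highest core gene, Psma7, was 7.55 times as high. This ratio of highest to lowest core gene was 5.72 with PGC-1α alone, 5.55 with OGD alone and 5.06 with both.

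The other catalytic subunits differed less. Psmb6, the caspase-like subunit, had 89.4 and 110 FPKM in Ctrl and PGC-1α and 124 and 119 FPKM in their OGD counterparts, an order of libraries kept for all values below. Psmb7, the trypsin-like subunit, had 96.3, 101, 130.0 and 119 FPKM. Neither was called in any comparison, and their OGD differences in control cells were 0.47 and 0.43 on the log2 scale. Psmb3, a beta subunit without catalytic activity, had 68.4, 93.6, 114 and 106 FPKM and was called higher after OGD in control cells, at 0.73. The remaining beta subunits Psmb1, Psmb2 and Psmb4 had OGD differences in control cells from 0.21 to 0.35.

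The 7 genes of the alpha ring, which gates the barrel, differed by similar amounts. In Ctrl+OGD against Ctrl their log2 differences ran from 0.37 for Psma6 to 0.70 for Psma3, with a median of 0.58. Psma3 had 49.7, 61.5, 81.4 and 78.8 FPKM, and both OGD libraries lay above both others. Psma1 had 83.9, 99.8, 130 and 121 FPKM, and Psma2 had 30.6, 36.1, 48.1 and 45.7 FPKM. Both show the same order of libraries as Psma3. Psma7, the highest proteasome gene, had 189, 206, 260 and 223 FPKM and was not called. In PGC-1α+OGD against Ctrl+OGD all 7 alpha genes were below 0, from −0.22 for Psma7 to −0.05 for Psma3.

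Promoter sequences were read for the genes whose pattern is described most closely. They are RefSeq windows of build GRCm38.p6 from 250 bases before to 50 bases after the annotated start, written in the direction of the gene, and 36 of the 43 genes had one. Capitals mark matches, on either strand, to the antioxidant response element TGACNNNGC, to the CCAAT box (CCAAT), to a binding site of nuclear respiratory factor 1 (CGCATGCG) or to the element of estrogen-related receptors (AAGGTCA), partners of PGC-1α. Only these letters were searched, with N as any base, so variant forms of a site are neither marked nor counted. Psmb5 (chr14:54617946-54618245, minus strand), Psmb6 (chr11:70525107-70525406, plus strand), Psma3 (chr12:70974373-70974672, plus strand) and Psmd13 (chr7:140882144-140882443, plus strand) are shown as the most different catalytic subunit, a less different one, the most different alpha gene and the most different regulatory gene.
Psmb5: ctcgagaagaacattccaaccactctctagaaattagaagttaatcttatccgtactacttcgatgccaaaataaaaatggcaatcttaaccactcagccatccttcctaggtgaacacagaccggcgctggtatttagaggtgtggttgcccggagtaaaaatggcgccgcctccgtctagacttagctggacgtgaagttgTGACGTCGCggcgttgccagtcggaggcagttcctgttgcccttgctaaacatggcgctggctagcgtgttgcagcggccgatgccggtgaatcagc
Psmb6: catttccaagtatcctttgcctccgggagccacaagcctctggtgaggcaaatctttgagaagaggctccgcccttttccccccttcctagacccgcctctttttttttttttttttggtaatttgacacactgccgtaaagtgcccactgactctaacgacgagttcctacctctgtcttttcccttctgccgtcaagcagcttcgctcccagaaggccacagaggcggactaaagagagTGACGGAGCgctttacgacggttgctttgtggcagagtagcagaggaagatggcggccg
Psma3: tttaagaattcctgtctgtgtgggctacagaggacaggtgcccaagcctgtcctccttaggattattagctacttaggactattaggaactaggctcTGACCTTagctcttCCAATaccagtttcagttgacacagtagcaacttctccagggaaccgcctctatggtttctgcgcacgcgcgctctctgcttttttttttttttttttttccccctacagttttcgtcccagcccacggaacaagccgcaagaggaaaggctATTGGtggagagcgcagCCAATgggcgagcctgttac
Psmd13: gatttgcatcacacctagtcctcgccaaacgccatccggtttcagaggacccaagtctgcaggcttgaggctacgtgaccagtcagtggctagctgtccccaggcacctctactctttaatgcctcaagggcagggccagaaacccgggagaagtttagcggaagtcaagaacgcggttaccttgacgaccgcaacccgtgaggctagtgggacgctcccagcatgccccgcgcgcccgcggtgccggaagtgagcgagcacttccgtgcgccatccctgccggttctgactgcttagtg

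Psmb5 and Psmb6 each held an antioxidant response element, TGACGTCGC from position −47 and TGACGGAGC from position −9 relative to the start. Psma3 held 3 CCAAT boxes and, on the other strand, the element of estrogen-related receptors from position −153. Psmd13 held none of the 4 motifs in this window. The antioxidant response element was found in 6 of 36 proteasome promoters (16.7%), namely those of Psmb5, Psmb6, Psmc6, Psmd9, Psmd12 and Psme4, against 16.9% of the 8406 tested genes with a window. The CCAAT box was found in 13 of 36 (36.1%), against 44.1%. The exact letters CGCATGCG were found in Psma2 and Psmg1 (5.56%), against 4.77%, which is not a count of all sites of nuclear respiratory factor 1. The element of estrogen-related receptors was found in Psma3, Psmc3ip and Psmd2 (8.33%), against 3.72%. The 6 genes with an antioxidant response element and the 30 without it had median log2 differences of 0.28 and 0.20 with PGC-1α, and of 0.41 and 0.50 with OGD in control cells. For the 3 genes with the element of estrogen-related receptors and the 33 without it, the medians were 0.28 and 0.18 with PGC-1α. They were −0.35 and −0.08 with PGC-1α after OGD. With OGD they were 0.58 and 0.46 in control cells, and −0.09 and 0.20 in overexpressing cells. The −0.35 and the −0.09 are values of Psmc3ip, which is no subunit. Beside them stood −0.44 and −0.14 for Psmd2, and −0.05 and 0.35 for Psma3. Genes with and without the CCAAT box had medians of 0.23 and 0.23 with PGC-1α, and of −0.13 and −0.04 with PGC-1α after OGD. For CGCATGCG the medians were 0.14 and 0.24, and −0.08 and −0.09. These matches are descriptions of letters in a window and do not show binding.

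In the regulatory particle the ATPases and the other subunits had unlike medians in both comparisons with the Ctrl library and closer ones in the others. The 6 ATPases Psmc1 to Psmc6, which unfold the substrate, had a median log2 difference of 0.36 with OGD in control cells and of 0.07 with PGC-1α, and none was called. Psmc1 had 86.0, 80.0, 117 and 106 FPKM, and Psmc6 had 70.4, 60.5, 78.9 and 77.6 FPKM. In both, the lowest library was PGC-1α and not Ctrl, unlike the core genes. The 11 subunits without ATPase activity had medians of 0.63 with OGD and 0.39 with PGC-1α, all 11 were above 0 in both comparisons, and 7 of them were called higher with OGD. In PGC-1α+OGD against Ctrl+OGD the medians of ATPases and other subunits were −0.08 and −0.09, and with OGD in overexpressing cells 0.20 and 0.15.

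Psmd13, a subunit of the lid that covers the ATPase ring, differed more than any other member in both comparisons with Ctrl. It had 20.8, 40.1, 40.6 and 37.0 FPKM. As for Psmb5, Ctrl stood alone below 3 similar libraries. The log2 difference from Ctrl was 0.92 with PGC-1α and 0.93 with OGD, and the OGD difference in overexpressing cells was −0.11. Psmd14, the deubiquitinase that removes the chain from the substrate, followed another course, with 53.5, 68.0, 95.0 and 84.9 FPKM. Both of its OGD libraries lay above both others, and its log2 difference with OGD was 0.82 in control cells and 0.32 in overexpressing cells.

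Psmd1, a scaffold subunit of the base, had 91.0, 130.1, 151 and 150 FPKM and a log2 OGD difference of 0.73 in control cells. Psmd4, a ubiquitin receptor, had 93.6, 127, 152 and 137 FPKM, with an OGD difference of 0.69. Psmd7, the partner of Psmd14 in the lid, had 136, 167, 210.2 and 197 FPKM, with one of 0.63. In all of them Ctrl was the lowest library and Ctrl+OGD the highest. The lid subunits Psmd6 and Psmd8 had 50.2, 64.1, 79.2 and 77.6 FPKM and 52.3, 68.9, 79.7 and 70.7 FPKM, with OGD differences of 0.65 and 0.60. Psmd8 lay near the limit, and its call was lost with upper quartile scaling (0.57).

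Psmd2, the scaffold subunit that binds ubiquitin-like domains, was the member with opposite PGC-1α differences that each reached 1.2-fold. It had 70.1, 85.3, 105 and 77.3 FPKM. The log2 difference with PGC-1α was 0.28 without OGD and −0.44 after it, and no call was made. Psmd11, a lid subunit, had its highest value in PGC-1α, with 28.1, 42.1, 33.5 and 37.4 FPKM. Psmd3, another lid subunit, had 21.7, 30.9, 32.7 and 34.7 FPKM, with Ctrl again lowest. Differences with PGC-1α without OGD were 0.57 for Psmd11 and 0.49 for Psmd3, both below the limit of a call.

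The median log2 differences of core and regulatory particle were set against each other in each comparison. The median of the core minus that of the regulatory particle was −0.09 with PGC-1α, −0.02 with PGC-1α after OGD, −0.01 with OGD in control cells and 0.02 with OGD in overexpressing cells. Across the alternative settings it ran from −0.18 to −0.09 with PGC-1α and from −0.09 to −0.01 with OGD in control cells, in both cases lowest by the highest transcript of each gene. The 20 regulatory genes include the 3 chaperones Psmd5, Psmd9 and Psmd10. The summed FPKM of the core genes was 1269, 1444, 1783 and 1632. That of the regulatory genes was 1198, 1428, 1723 and 1599, so both sums had the same order of libraries. Per gene, the median level was 86.6 FPKM in Ctrl and 125 in Ctrl+OGD for the core, and 53.6 and 79.0 FPKM for the regulatory particle.

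The assembly chaperones differed among themselves in the order of libraries. Psmd5, Psmd9 and Psmd10 are chaperones of the regulatory base. Psmd5 had 14.0, 10.6, 13.6 and 10.6 FPKM, lower in both overexpressing libraries than in both controls, with log2 differences of −0.37 and −0.33. It was the member with its highest value in Ctrl. Psmd10 had 18.4, 14.9, 18.9 and 20.0 FPKM, with PGC-1α lowest, and Psmd9 had 9.56, 12.7, 12.4 and 14.9 FPKM, with Ctrl lowest.

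Psmg1 to Psmg4, the chaperones of the core, had a median log2 difference with OGD of 0.27 in control cells and of 0.29 in overexpressing cells, and all 4 were above 0 in both. With PGC-1α their median was −0.05, against 0.19 for the core genes. Psmg1 had 22.8, 23.7, 32.7 and 30.8 FPKM, with both OGD libraries above both others, the order of libraries of the alpha genes Psma1 to Psma3. Psmg3 had 12.6, 14.2, 15.4 and 16.6 FPKM, and Psmg4 had 84.4, 73.7, 102 and 104 FPKM. PGC-1α was the lowest library for Psmg4 and Psmg2, and Ctrl for Psmg1 and Psmg3.

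Among activators and inhibitors of the core particle no gene was called. Psme3, a nuclear activator that works without ubiquitin, had 39.3, 44.6, 53.3 and 54.1 FPKM. Psme4, an activator with roles in chromatin and DNA repair, had 19.6, 20.2, 20.9 and 21.5 FPKM, with little difference between libraries. Psmf1, described as an inhibitor and regulator of the core, had 3.94, 4.55, 5.99 and 5.82 FPKM. Psme2b had 1.43, 2.23, 1.17 and 1.57 FPKM and a log2 difference of −0.33 with OGD in overexpressing cells, while Psmc3ip had 11.1, 13.3, 16.1 and 12.4 FPKM and one of −0.35 with PGC-1α after OGD. Without these name matches, chaperones, activators and the inhibitor, 31 structural subunits chosen by the name rule remained. Their medians were 0.25 with PGC-1α and −0.11 with PGC-1α after OGD, and 0.51 and 0.18 with OGD in control and overexpressing cells. All 31 were above 0 with OGD in control cells.

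Single transcripts showed where a gene sum hides a shift. Of the 43 genes, 21 had 1 transcript and 22 had 2 or more, 81 transcripts in all, and the estimates of overlapping transcripts of a gene depend on each other. For the ATPase gene Psmc4 the sum was 38.0, 38.0, 41.0 and 40.7 FPKM, the smallest spread of all members. Its transcript Psmc4-201 had 16.2, 32.0, 36.1 and 27.0 FPKM, while Psmc4-206 had 21.8, 6.03, 4.87 and 13.6 FPKM. Only in Ctrl was Psmc4-206 the higher of both. Psmg4-201 had 40.2, 33.1, 45.9 and 87.8 FPKM, while Psmg4-202 had 44.2, 40.6, 56.2 and 16.4 FPKM. Here PGC-1α+OGD stood apart. Psmd4-202 had 49.9, 87.1, 106 and 101 FPKM beside Psmd4-203 with 42.1, 38.8, 44.1 and 34.4 FPKM, so the difference of the gene lay in the former transcript.

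For Psmb5 and Psmd13 the main transcript carried the difference. Psmb5-201 had 25.0, 41.5, 45.1 and 42.8 FPKM, and Psmb5-202 was listed at 0 in Ctrl and stood at 1.71, 1.72 and 1.32 FPKM in the others. Psmd13-201 had 15.5, 32.2, 31.7 and 28.8 FPKM. Ctrl was the low library in each of these transcripts. With the highest transcript in place of the sum, the genes called higher with PGC-1α numbered 6 in place of 2, Psmc4, Psmd4, Psmd8 and Psmf1 joining Psmb5 and Psmd13. With OGD in control cells they numbered 15, which held all 12 of the summed genes. The share of all genes called by the highest transcript is not given here, so these counts have no background. The median over the 21 genes with 1 transcript was 0.46 with OGD in control cells, and that over the others 0.50.

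Partners of the proteasome gave a mixed picture. Of 31 genes listed as regulators, bound factors, shuttles or ubiquitin genes, 28 were tested, and Paaf1, Ubqln2 and Ddi1 had no value here. Their median was 0.18 with OGD in control cells, with 3 called higher and none lower, against the 6.2% and 7.71% of all genes given above. Adrm1, a ubiquitin receptor of the regulatory particle, had 39.5, 60.9, 75.0 and 71.9 FPKM and was called higher with PGC-1α (0.61) and with OGD in control cells (0.91). Uchl5, the deubiquitinase that Adrm1 holds, had 17.0, 23.1, 34.2 and 36.2 FPKM and was called higher with OGD in control cells (0.97) and in overexpressing cells (0.63). By its highest transcript both values fell under the limit, at 0.58 and 0.37. Sem1, also listed as bound to the proteasome, had 206, 229, 215 and 199 FPKM. Its log2 OGD difference was 0.07 in control cells and −0.20 in overexpressing cells. Vcp, the segregase that extracts ubiquitinated proteins, had 106, 161, 168 and 158 FPKM, with Ctrl alone below, and was called higher with PGC-1α (0.60) and with OGD in control cells (0.65), the former lost with upper quartile scaling (0.58).

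None of the 4 genes that act in the induction of proteasome genes was above 0 with OGD in control cells, where their median log2 difference was −0.37. Their median was −0.18 with PGC-1α, 0.11 with PGC-1α after OGD and −0.04 with OGD in overexpressing cells, with 1, 3 and 2 of the 4 above 0. Nfe2l1, the transcription factor that raises subunit transcription when proteolysis is short, had 38.1, 30.0, 28.4 and 30.6 FPKM, with Ctrl the highest library. Its log2 difference was −0.33 with PGC-1α and −0.41 with OGD in control cells, and by its highest transcript −0.62 and −0.70, past the limit of a call. Nfe2l2, the factor of the antioxidant response, had 58.6, 48.4, 46.2 and 44.8 FPKM, again with Ctrl highest. Ddi2, the protease that activates the product of Nfe2l1, had 6.67, 6.25, 6.09 and 6.73 FPKM. Ngly1, which removes its sugar chains, had 7.77, 8.31, 5.22 and 6.33 FPKM. Activity of these factors is set largely at the protein level and was not measured here.

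Related complexes were set beside the constitutive proteasome. The 5 genes that the name rule left out, the immunoproteasome subunits and Psme1 and Psme2, had medians of 0.39 with PGC-1α and −0.16 with PGC-1α after OGD. These medians had the signs of the constitutive genes, with 3 and 1 of the 5 genes above 0. With OGD their medians were −0.05 in control cells and −0.48 in overexpressing cells, with 2 and 1 of the 5 above 0. Psmb10, their trypsin-like subunit, had 3.35, 7.59, 3.99 and 8.85 FPKM, higher in both overexpressing libraries (0.98 in each comparison). Psme2, a subunit of an interferon-induced activator, had 47.1, 62.0, 48.0 and 40.2 FPKM and was called lower with OGD in overexpressing cells (−0.61). The 78 cytosolic ribosomal protein genes, another large complex of abundant proteins, had medians of −0.15 with PGC-1α both without and after OGD, and of 0.11 and 0.16 with OGD in control and overexpressing cells. The 7 tested genes of the CCT chaperonin, which folds actin and tubulin, had medians of 0.13 with PGC-1α and −0.08 with PGC-1α after OGD. With OGD their medians were 0.37 and 0.23 in control and overexpressing cells. The medians of the CCT genes had the same signs as those of the proteasome genes in each comparison. The ribosomal median with PGC-1α without OGD, and both medians of the left-out genes with OGD, had the opposite sign. Whether any of these lists differs from the others beyond the spread between cultures could not be tested with 1 library per group.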

How the data were processed

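RNA-Seq data of 4 libraries of HT-22 cells, 1 per group, were used, and groups were taken from the sample records. The authors prepared stranded poly(A) libraries, sequenced them from both ends and, per the submitters' processing notes, aligned the reads to GRCm38 with HISAT2 2.1.0. They deposited 1 table with a value for each of 25889 transcripts. The unit of the deposited values is not named, and they were taken as FPKM since they are never negative, are not whole and have unequal totals far below that of TPM. The program that estimated them, its annotation and the filter on transcripts are not given in the sources used here. Each transcript reaches 0.500 FPKM in at least 1 library, so genes below that level have no value, and depth and counting error are unknown.

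Transcripts were matched to GENCODE M21 by identifier without version (25822, 99.7%) and summed to 11502 gene symbols. Of the 43 members, Psmb5, Psmd1, Psme2b and Psmg3 share exons on the same strand with another annotated gene, none of which had a value. Differences were taken as log2(FPKM + 1), without further scaling, for the 10604 genes whose mean reached 1 FPKM, and calls were made at 1.5-fold. A difference on this scale understates the change of low genes. With 1 library per group no test was run and no p value was computed. The genes named were the catalytic subunits, every member called in a comparison, in each comparison the 5 highest and 3 lowest differences, the highest and lowest member, Psmd14, Psmf1, Psme3, Psme4 and Psmc3ip, the factors Nfe2l1, Nfe2l2, Ddi2 and Ngly1, and partners that were called. Genes named in addition, among them Psmc4 and Psmb10, were chosen after their values were seen. The members, lists and rules were chosen with earlier results of these data known.

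Alternatives were a pseudocount of 0.1, a minimum mean of 0 or 5 FPKM, the highest transcript in place of the sum, median ratio and upper quartile scaling, folds of 1.25 and 2, subtraction of the trend with transcript length, and structural subunits alone. Promoter windows came from RefSeq (GRCm38.p6), and Psmb1, Psmb2, Psmb7, Psmc3, Psmd3, Psmd7 and Psmg2 had none. The calculations used Python 3.11.15 with pandas 2.3.3, numpy 2.4.6 and matplotlib 3.10.9 and were tested on simulated data.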

Additional observations from a re-analysis of the deposited data

Results flagged for a closer look

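PGC-1α overexpression went with differences of opposite sign without and with OGD. The median log2 difference of the 43 proteasome genes was 0.18 in PGC-1α vs Ctrl and −0.0917 in PGC-1α+OGD vs Ctrl+OGD. Over the 3723 genes whose mean reached 20 FPKM it was 0.02 and −0.03. It was 0.19 and −0.11 for the core particle, and 0.29 and −0.0921 for the regulatory particle. By gene, 30 of 43 had opposite signs in both comparisons, against 46.3% of all genes tested, and 28 of the 30 were above 0 without OGD and below 0 after it. The share among abundant genes alone is not given here. Psmd2, a scaffold subunit of the regulatory base, had 0.28 and −0.44. These results are listed because the values had opposite signs in both comparisons. The medians after OGD were small, and with 1 library per group the difference was not tested. Ppargc1a itself was at 35.1 FPKM in PGC-1α and 8.41 in PGC-1α+OGD, and its part in these differences was not tested.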

How the results depend on the processing

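Of 152 summary values under the alternatives, 140 kept their direction with medians within 0.1 and counts within 1.5 times, 11 moved by more, and 1 changed sign. Medians of the 43 genes ranged from 0.16 to 0.25 in PGC-1α vs Ctrl, from −0.11 to −0.06 in PGC-1α+OGD vs Ctrl+OGD, from 0.37 to 0.51 in Ctrl+OGD vs Ctrl and from 0.17 to 0.20 in PGC-1α+OGD vs PGC-1α. With the highest transcript in place of the sum, the genes called higher numbered 6 in PGC-1α vs Ctrl in place of 2, and 2 (Psmd11 and Psmg4) in PGC-1α+OGD vs Ctrl+OGD, where the sum gave 0, with 1 (Psmg4) in place of 0 in PGC-1α+OGD vs PGC-1α, and the core minus regulatory median in PGC-1α+OGD vs PGC-1α became −0.00095. The cause of the change in sign was not tested. At a fold of 2, 0 genes were called higher in PGC-1α vs Ctrl and 0 in Ctrl+OGD vs Ctrl. At the looser of the alternative folds, 12 members were called higher and 1 lower in PGC-1α vs Ctrl. Of all 10604 genes tested, 1463 were higher and 1701 lower there. In PGC-1α+OGD vs Ctrl+OGD 3 members were called lower, against 1057 of all, and in Ctrl+OGD vs Ctrl 32 higher, against 1827. In PGC-1α+OGD vs PGC-1α 7 members were called higher and 1 lower, against 1226 and 1485 of all. Without the length trend, 8 genes were called higher in Ctrl+OGD vs Ctrl in place of 12. For these calls and those by the highest transcript or at a fold of 2, the share of all genes is not given here. Of 1984 values of single genes, 1888 stayed, 62 moved by more than the limit, 9 lost and 25 gained a call, and 0 changed sign after a call. No paired analysis was possible because each group has 1 library, and for the same reason no library could be left out. The number of reads is unknown, so the precision of a single value cannot be given.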
